A study of Mus musculus with 12 samples.

Results

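The replication-dependent histone genes encode the bulk of the core histones H2A, H2B, H3 and H4 and of the linker histone H1. They were taken as every gene of the deposited table whose symbol starts with Hist1h, Hist2h, Hist3h or Hist4h and does not end in -ps, with or without a digit, the mark of a pseudogene. This rule, which uses no measured value, gave 69 of 55450 genes. The data are total RNA-seq of brain and liver from male mice of 7 to 9 weeks, either wild-type or with a knockout (ko) of Vaultrc5, a small non-coding vault RNA. Each of the 4 groups (wild-type brain, knockout brain, wild-type liver, knockout liver) held 3 libraries. The wild-type libraries carry flx in their titles and wild-type as their genotype label, and the knockout was not restricted to a tissue by any label. The labels do not state that the 3 libraries of a group came from separate animals, so each p-value measures the spread between these libraries, which may be technical.

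Replication-dependent histone genes lie in clusters, mostly lack introns, and are transcribed chiefly in S phase, when new DNA has to be packed into nucleosomes. Their messenger RNAs are the known exception to polyadenylation: the end is a conserved stem-loop, bound by the stem-loop binding protein Slbp and cut with the help of the U7 small nuclear ribonucleoprotein. Some members also give longer, polyadenylated transcripts in cells that have left the cell cycle. Brain and liver of young adult mice hold mostly non-dividing cells. Total RNA libraries made after removal of ribosomal RNA, as here, keep transcripts without a poly(A) tail.

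By class the genes comprised 6 for H1, 20 for H2A, 18 for H2B, 12 for H3 and 13 for H4. The Hist1 cluster on chromosome 13 held 56 of them, the Hist2 cluster on chromosome 3 held 10, the Hist3 cluster on chromosome 11 held 2, and Hist4h4 on chromosome 6 stood alone. In the GENCODE M21 annotation of GRCm38, 67 were protein-coding, Hist1h2aj was an unprocessed pseudogene and Hist1h2al a processed pseudogene. Models with 1 exon numbered 64. The 13 H4 genes encode 1 and the same protein, the 12 H3 genes 3 proteins and the 20 H2A genes 9, while each of the 6 H1 genes encodes its own.

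The stem-loop that defines these messages was present letter for letter in the models of 46 genes, at 21 to 58 nt after the stop codon (median 31 nt). Of the 69 models, 50 reach 50 nt or more past the stop codon, and 15 end within 20 nt of it, so that the loop could not be seen in the latter. The commonest 16-nt core, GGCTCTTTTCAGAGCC, occurred in 26 genes, and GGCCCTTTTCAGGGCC in 7. The sites below are those of the genes with the highest read shares or the largest differences between tissues, with the stem and loop in capitals and 5 flanking bases on either side, read 5′ to 3′ from the GENCODE M21 transcripts.
Hist3h2ba: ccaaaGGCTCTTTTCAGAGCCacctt
Hist3h2a: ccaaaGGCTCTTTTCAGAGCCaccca
Hist2h2aa2: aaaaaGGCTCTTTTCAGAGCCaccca
Hist1h1c: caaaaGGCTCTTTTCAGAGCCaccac
Hist2h2ac: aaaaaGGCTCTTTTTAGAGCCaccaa
Hist1h4h: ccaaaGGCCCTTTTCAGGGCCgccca
Hist1h4c: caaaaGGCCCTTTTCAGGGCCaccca
Hist1h4d: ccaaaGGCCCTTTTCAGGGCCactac
The Hist3h2ba and Hist3h2a cores were identical to those of Hist2h2aa2 and Hist1h1c, whose levels differed in the opposite direction between the tissues (given with the tissue comparison). The cores of the printed H4 genes differed from these in the stem. Hist1h2bc, the most abundant H2B gene of liver, has a model of 2 exons without a match to the core.

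Promoters are shown because many of these genes sit head to head, in 14 divergent pairs by the annotation. RefSeq promoter windows on GRCm38.p6, 250 bases before to 50 after each start, were found for 62 of the 69 genes. A TATA box (TATAAA on either strand) was present in 35 windows, or 56.5%, against 14.2% of all 27025 promoters in the RefSeq table. A CCAAT box (CCAAT on either strand) was present in 53 windows, or 85.5%, against 37.9% of all promoters. All windows of H1, H2A, H2B and H3 genes held it, but only 3 of 12 H4 windows. The octamer ATTTGCAT, on either strand, was found in 7 of 18 H2A and 6 of 16 H2B windows, in no H1, H3 or H4 window, and in 1.75% of all promoters. None of the 3 sets of letters contains another. A match describes these letters only.
The following windows belong to a head-to-head H2A and H2B pair (Hist1h2ac at chr13:23683910-23684209, minus strand, which spans the 250-nt gap to Hist1h2bc) and to the Hist3 pair (Hist3h2ba at chr11:58948661-58948960 and Hist3h2a at chr11:58954435-58954734, both plus strand), with the matched letters in capitals.
Hist1h2ac: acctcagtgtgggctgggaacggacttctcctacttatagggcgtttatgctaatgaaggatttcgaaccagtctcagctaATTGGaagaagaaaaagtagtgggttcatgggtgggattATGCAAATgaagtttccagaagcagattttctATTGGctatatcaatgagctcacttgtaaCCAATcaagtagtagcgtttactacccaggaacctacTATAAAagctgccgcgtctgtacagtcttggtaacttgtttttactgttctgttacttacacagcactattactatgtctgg
Hist3h2ba: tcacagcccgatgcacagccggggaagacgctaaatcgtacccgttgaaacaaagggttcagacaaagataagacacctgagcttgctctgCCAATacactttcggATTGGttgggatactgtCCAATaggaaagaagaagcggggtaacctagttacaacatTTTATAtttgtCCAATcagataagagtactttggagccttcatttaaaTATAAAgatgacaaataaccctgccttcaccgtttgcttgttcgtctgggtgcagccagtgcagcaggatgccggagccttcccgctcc
Hist3h2a: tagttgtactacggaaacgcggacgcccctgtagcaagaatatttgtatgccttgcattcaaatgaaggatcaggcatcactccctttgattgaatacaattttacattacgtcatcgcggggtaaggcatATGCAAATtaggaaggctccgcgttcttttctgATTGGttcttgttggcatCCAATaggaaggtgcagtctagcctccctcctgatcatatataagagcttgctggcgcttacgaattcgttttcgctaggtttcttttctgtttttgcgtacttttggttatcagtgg
The Hist1h2ac window held all 3 motifs, the Hist3h2ba window the TATA and CCAAT boxes, and the Hist3h2a window the CCAAT box and the octamer.

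Sequencing depth ranged from 14844971 to 18567381 expected counts in the brain libraries and from 23247449 to 27155480 in the liver libraries. Vaultrc5 was at 0 in all 6 knockout libraries. In the wild-type libraries it had 0.0410 to 0.177 CPM in brain and 1.86 to 2.52 CPM in liver, so the check is a weak one in brain. CPM is the expected count scaled to library size, with size factors by the trimmed mean of M-values (TMM) over the 12 libraries. The neural markers summed to 3814 to 6637 CPM in brain and 28.1 to 36.6 CPM in liver, and the hepatocyte markers to at least 59585 CPM in every liver library. The hepatocyte markers reached 438 CPM in brain, nearly all of it Ttr, which ranged from 0.205 to 437 CPM there.

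Many of these genes are near-identical copies, and reads that match several copies can be split between them. The deposited values are expected counts, and 72.3% of the values of the 69 genes were not whole numbers (tolerance 0.005), against 5.34% of all values in the table. In 34 genes fewer than 50% of the 50-nt stretches of the model were unique among the annotated transcripts, and Hist2h2aa2 and Hist2h3c1 had 0% unique. The sum over the 13 H4 genes was whole, within 0.02, in 12 of 12 libraries. The H1 sum was whole in 2 libraries and the H2A, H2B and H3 sums in 1 each, and the sum over all 69 genes in 0. Values of single genes, and sums over classes other than H4, are therefore as the authors' counting assigned them.

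All 5 classes were detected in every library of both adult tissues, and together the 69 genes accounted for 0.0319 to 0.0433% of a brain library and 0.0225 to 0.0318% of a liver library. H1, the linker histone that binds DNA between nucleosomes, summed to 59.0, 39.7 and 38.6 CPM in the wild-type brain libraries and 50.6, 39.7 and 38.3 CPM in the knockout ones. In liver H1 stood at 99.1, 73.3 and 62.7 CPM in wild-type and 73.6, 87.5 and 48.4 CPM in knockout libraries. The wild-type brain and liver libraries did not overlap in H1, whereas the lowest knockout liver library lay below the highest knockout brain library.
The H2A class had 62.3, 49.2 and 45.5 CPM in wild-type and 54.5, 46.2 and 50.5 CPM in knockout brain. In liver it had 84.3, 73.2 and 73.8 CPM in wild-type and 72.0, 70.2 and 56.8 CPM in knockout libraries, so brain and liver did not overlap within either genotype, although knockout liver replicate 3 lay below wild-type brain replicate 1. Its partner in the histone dimer, H2B, had 45.6, 36.4 and 34.5 CPM in wild-type and 39.1, 36.9 and 33.7 CPM in knockout brain. The H2B sums in liver were 86.6, 88.0 and 77.6 CPM in wild-type and 94.4, 102.5 and 72.8 CPM in knockout libraries, without overlap with brain.
The core pair H3 and H4 showed no such separation. H3 sums ranged from 20.7 to 26.2 CPM in brain and 22.2 to 29.1 CPM in liver, and H4 sums from 93.2 to 126 CPM in brain and 92.5 to 126 CPM in liver.

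**Figure D1:**
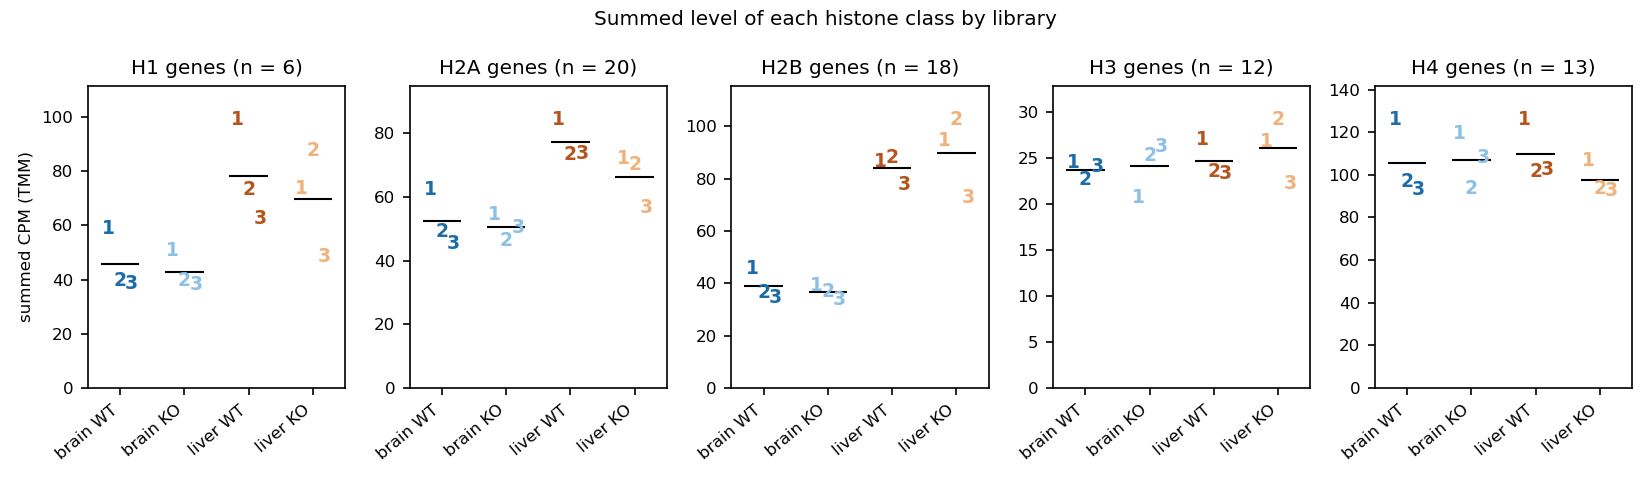
Summed CPM (TMM scale, y axis) of the 5 histone gene classes in the 4 groups; each digit is a library at its replicate number and each line a group mean. H2B sums are 33.7 to 45.6 in brain and 72.8 to 102.5 in liver, while the H3 and H4 ranges overlap between the tissues.

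Whether a class counts as higher in liver depended on the scaling. TMM assumes that most genes are alike between the tissues. Scaling by library totals moved the median log2 difference (brain over liver) of all tested genes from 0.21 to 1.05 in wild-type, a shift of 0.84, and by 0.88 in knockout. The differences of the 48 tested histone genes moved by 0.73 to 0.85 in wild-type and 0.81 to 0.89 in knockout mice. On the TMM scale the log2 ratio of mean class sums, brain over liver, was -0.78 for H1, -0.56 for H2A, -1.11 for H2B, -0.05 for H3 and -0.06 for H4 in wild-type mice. With library totals these became 0.07, 0.29, -0.27, 0.79 and 0.78. In knockout mice the TMM ratios were -0.70 for H1, -0.40 for H2A, -1.30 for H2B, -0.12 for H3 and 0.13 for H4, against 0.17, 0.47, -0.43, 0.75 and 1.00 with library totals. The H2B sum of CPM was thus lower in brain under both scalings, but not on both length scales. Summed per kilobase of model, the H2B log2 ratio was -0.55 in wild-type and -0.76 in knockout mice with TMM and 0.30 and 0.11 with library totals. On that scale H2A had the lower ratio, at -0.99 and -0.82 with TMM and -0.14 and 0.04 with library totals. No class was lower in brain in both genotypes under both scalings and both length scales. In bulk tissue, fewer cells of a type and less RNA per cell cannot be told apart.

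The composition of a class does not depend on the scaling of libraries and differed between brain and liver. Shares of counts compare 1 gene between the tissues, and the order of genes within a class is given per kilobase. In liver, Hist1h2bc (chr13:23684199-23692908, plus strand), a gene known to give polyadenylated H2B messages, took a median of 85.5% of H2B counts (85.1 to 89.0% over the 6 libraries). In brain it took 22.5% (19.7 to 26.3%). Of the other H2B genes in brain, Hist3h2ba (chr11:58948920-58949533, plus strand) took 15.4 to 24.0% and Hist2h2bb (chr3:96269752-96270132, plus strand) 14.8 to 19.0%. Hist1h2be took 8.35 to 13.6%, Hist1h2bg 6.99 to 13.6% and Hist2h2be 8.16 to 10.0%. In liver Hist3h2ba took at most 0.111% and Hist2h2bb 0.718 to 2.16%. Per kilobase of model, Hist1h2bc made up 78.4 to 85.9% of H2B in liver and 12.6 to 16.5% in brain. The order in brain was then Hist2h2bb, at 29.1 to 36.8%, and Hist3h2ba, at 18.1 to 29.7%, with ranges that overlapped.
In the H2A class, Hist2h2aa2 (chr3:96239749-96240276, minus strand) took 72.7 to 80.3% of H2A counts there and 32.6 to 43.3% in brain, where Hist3h2a (chr11:58954685-58956830, plus strand) took 37.0 to 44.9%. Hist3h2a took 5.29 to 7.73% in liver. Per kilobase Hist2h2aa2 led in both tissues, with 44.3 to 59.7% of H2A in brain and 76.2 to 84.1% in liver, and Hist3h2a, which has a longer model, made up 12.5 to 16.2% and 1.34 to 2.00%. Among H1 genes, Hist1h1c (chr13:23738808-23740367, plus strand), which encodes the H1.2 subtype, took 46.6 to 60.9% in liver and 30.2 to 36.0% in brain. Hist1h1e, which encodes H1.4, took 27.8 to 44.2% in liver and 41.3 to 44.1% in brain. Of the H4 counts, Hist1h4d took 25.4 to 30.2% in brain and 27.2 to 34.4% in liver, so the ranges of this gene overlapped.

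**Figure D2:**
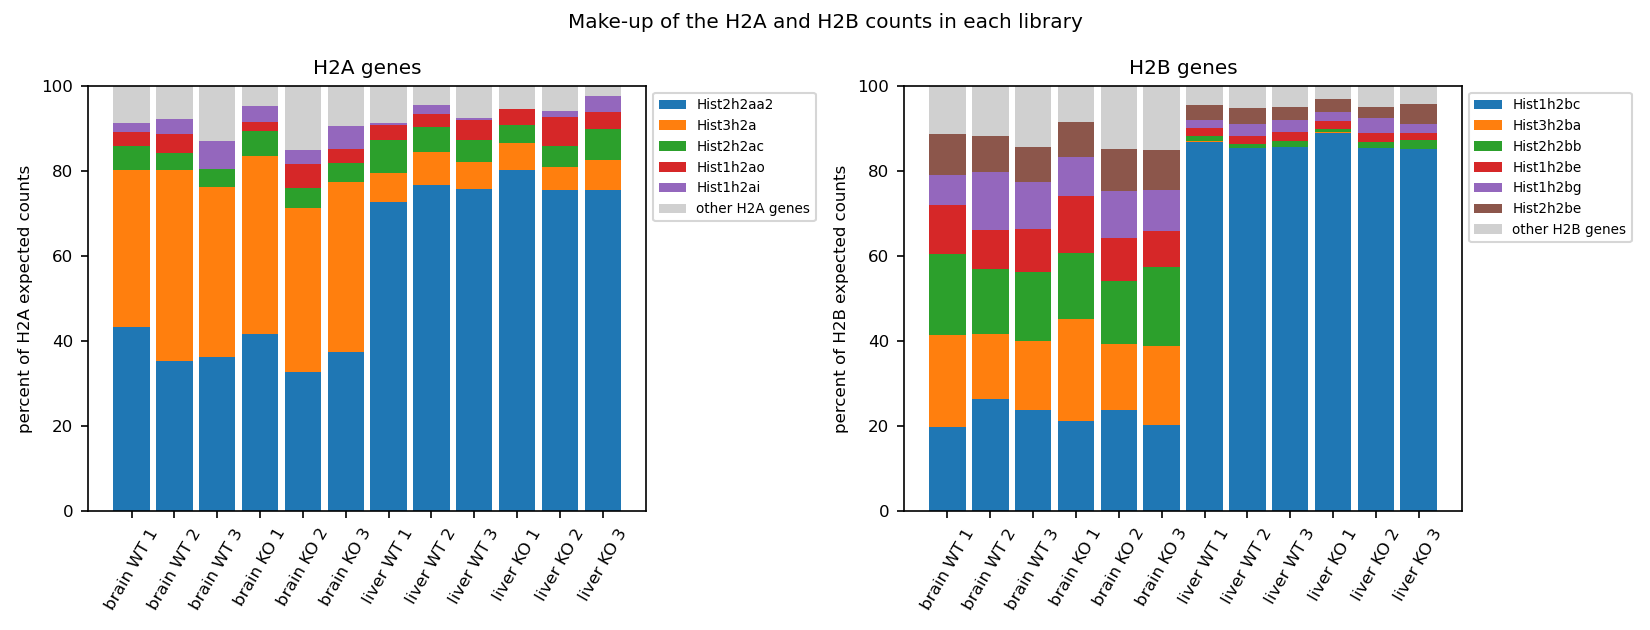
Share of the summed H2A and H2B expected counts (y axis, percent) taken by single genes in each of the 12 libraries (x axis). Hist1h2bc fills 85.1 to 89.0% of the H2B bar in liver and 19.7 to 26.3% in brain, where Hist3h2ba takes 15.4 to 24.0% and Hist2h2bb 14.8 to 19.0%.

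Levels of different genes are comparable only per length, here CPM per kilobase of the annotated model. That scale depends on the model, since 23 models run over 100 nt past their stem-loop. Hist2h2aa2 ranked first in both tissues, with 38.4 ± 11.0 CPM per kilobase in wild-type brain and 109 ± 5.73 in wild-type liver (SD, n = 3). Second in liver was Hist1h2bc with 62.5 ± 4.42 CPM per kilobase, and it was 16th in brain with 7.73 ± 0.573. The H4 genes Hist1h4h and Hist1h4d came next, with 32.7 ± 6.84 and 25.1 ± 3.35 CPM per kilobase in wild-type brain and 54.4 ± 10.8 and 27.6 ± 2.23 in wild-type liver. In wild-type brain the ranges of Hist2h2aa2 and Hist1h4h overlapped, as did those of Hist1h4h and Hist1h4d, and in wild-type liver those of Hist1h2bc and Hist1h4h. Hist3h2ba ranked 9th in brain, with 11.5 ± 4.07 CPM per kilobase, and 64th in liver. The testis genes Hist1h2aa and Hist1h2ba and the pseudogene Hist1h2aj had no reads in any library. Another testis gene, Hist1h1t, had 0 to 2 counts per library.

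The comparison of wild-type brain with wild-type liver asks which genes carry the histone supply of each tissue. Of the 69 genes, 48 passed the filter on low counts, and 20 of these were called by edgeR's quasi-likelihood test (Benjamini-Hochberg adjusted p under 0.05 over 18850 genes), or 41.7%, against 78.6% of all genes tested. Higher in brain were 13, against 43.9% of all genes, and higher in liver 7, against 34.7%. With library totals in place of TMM, 30 were higher in brain and 3 in liver, against 61.7% and 21.2% of all genes, so the share higher in brain was near that of all genes. Without liver wild-type replicate 1, 4 genes were called higher in liver. In the knockout mice 19 of 48 were called, or 39.6%, against 78.7% of all genes, with 13 higher in brain (43.5% of all genes) and 6 higher in liver (35.2%). With library totals these were also 30 and 3, against 62.1% and 20.6% of all genes. The median log2 difference, brain over liver, was 0.23 over the tested histone genes and 0.21 over all genes in wild-type mice, and 0.38 against 0.21 in knockout mice. On the TMM scale the share of histone genes called lay below that of all genes in both genotypes.

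A set of 11 genes was called higher in brain in both genotypes and under both scalings: Hist1h1a, Hist1h2ak, Hist2h2ab, Hist3h2a, Hist1h2be, Hist2h2bb, Hist3h2ba, Hist1h3d, Hist1h4a, Hist1h4f and Hist1h4k. Of these, Hist1h2ak, Hist2h2ab and Hist3h2ba had fewer than 10 counts in every liver library, so they passed the filter on low counts through brain alone and their direction was fixed by it. Nothing is read from their calls. Hist1h3d in both genotypes, and Hist1h1a and Hist1h4k in knockout mice, also had fewer than 10 counts in at least 1 liver library. So did Hist1h1b, called higher in brain in knockout mice only. In those genotypes they passed the filter only with the help of brain, so nothing is read from the direction of these calls. Of the genes called higher in liver in wild-type mice, 2 had fewer than 10 counts in at least 1 brain library. Of the 6 genes called higher in liver in knockout mice, 2 had fewer than 10 counts in every brain library. Hist1h2bc and Hist2h2aa2 were called higher in liver in both genotypes and under both scalings. Of those named here, Hist1h2ak, Hist2h2ab, Hist1h3d and Hist1h4a lie outside the naming rule and were listed after their values were seen. By class, the wild-type calls higher in brain and higher in liver were 1 and 1 of 5 tested for H1, 3 and 3 of 9 for H2A, 4 and 1 of 11 for H2B, 2 and 1 of 10 for H3, and 3 and 1 of 13 for H4. With library totals they were 2 and 1, 5 and 1, 8 and 1, 5 and 0, and 10 and 0. Over all genes 43.9% were called higher in brain and 34.7% higher in liver with TMM, and 61.7% and 21.2% with library totals.

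Hist3h2ba, an H2B gene of the small Hist3 cluster, was detected almost only in brain. It had 9.93, 5.59 and 5.61 CPM in wild-type and 9.38, 5.75 and 6.20 CPM in knockout brain. The wild-type liver libraries held 1, 0 and 0 counts of it and the knockout ones 2, 0 and 0. All liver libraries lay at or under the floor of 3 counts, so the ratio is given from the summed counts, each divided by its summed TMM-scaled library sizes, and as a description. It was 398 in wild-type (492 counts in brain, 1 in liver, exact 95% counting interval 71.1 to 15741) and 192 in knockout mice (458 counts against 2, interval 52.9 to 1591). These intervals cover counting error only. Divided by library totals instead, the ratios were 714 and 349. Its near-identical neighbour Hist3h2bb-ps was counted 26.8 to 68.6 times in brain and at most 6.00 times in liver.

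Hist3h2a, the H2A gene of the same cluster, had 23.1, 22.1 and 18.2 CPM in wild-type and 22.9, 17.8 and 20.1 CPM in knockout brain. In liver it had 5.85, 5.66 and 4.66 CPM in wild-type and 4.52, 3.72 and 3.98 CPM in knockout libraries. Every brain library stood above every liver library, with a log2 difference of 1.97 (SE 0.16, adjusted p = 1.35e-05, edgeR) in wild-type and 2.31 (SE 0.16, adjusted p = 6.78e-06) in knockout mice. The gene overlaps Trim17 on the same strand. Trim17 had 3.15 to 5.43 CPM in brain and at most 0.0663 CPM in liver, and the sum of both genes was 21.7 to 26.9 CPM in brain and 3.72 to 5.85 CPM in liver.

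Hist2h2bb, an H2B gene of the Hist2 cluster, had 8.66, 5.57 and 5.58 CPM in wild-type and 6.00, 5.45 and 6.31 CPM in knockout brain. Its liver values were 1.12, 0.947 and 1.20 CPM in wild-type and 0.678, 1.29 and 1.57 CPM in knockout libraries. The tissues did not overlap, and the log2 difference was 2.60 (SE 0.27, adjusted p = 6.23e-05, edgeR) in wild-type and 2.32 (SE 0.31, adjusted p = 0.000277) in knockout mice. Its same-strand neighbour Gm42743 had at most 0.565 CPM.
Hist1h4k (chr13:21750194-21750505, minus strand) was the H4 gene with the smallest p in the wild-type tissue comparison. It had 7.91, 5.20 and 5.49 CPM in wild-type and 7.06, 6.45 and 6.04 CPM in knockout brain, against 1.61, 0.815 and 1.27 CPM in wild-type and 1.05, 2.23 and 0.274 CPM in knockout liver. The tissues were apart in all 12 libraries, by a log2 difference of 2.35 (SE 0.32, adjusted p = 0.000276, edgeR) in wild-type and 2.44 (SE 0.55, adjusted p = 0.00452) in knockout mice. Knockout liver replicate 3 held 4.89 counts, so the gene passed the knockout filter only with the help of brain and that direction is not read. Leaving out a library moved the knockout difference from 1.953 to 3.235.
Hist1h2be, an H2B gene of the Hist1 cluster, had 5.27, 3.36 and 3.47 CPM in wild-type and 5.33, 3.72 and 2.82 CPM in knockout brain. It had 1.51, 1.64 and 1.67 CPM in wild-type and 1.88, 2.33 and 1.32 CPM in knockout liver. These groups did not overlap either, and the log2 difference was 1.32 (SE 0.27, adjusted p = 0.00222, edgeR) and 1.10 (SE 0.33, adjusted p = 0.0176). The knockout call was lost without brain knockout replicate 1 (0.84, adjusted p = 0.0575) or liver knockout replicate 3 (0.88, adjusted p = 0.0556). Its model overlaps that of Hist1h1e, with which reads could be exchanged. Both genes together had 19.7 to 30.9 CPM in brain and 19.4 to 42.5 CPM in liver, which overlapped.

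**Figure D3:**
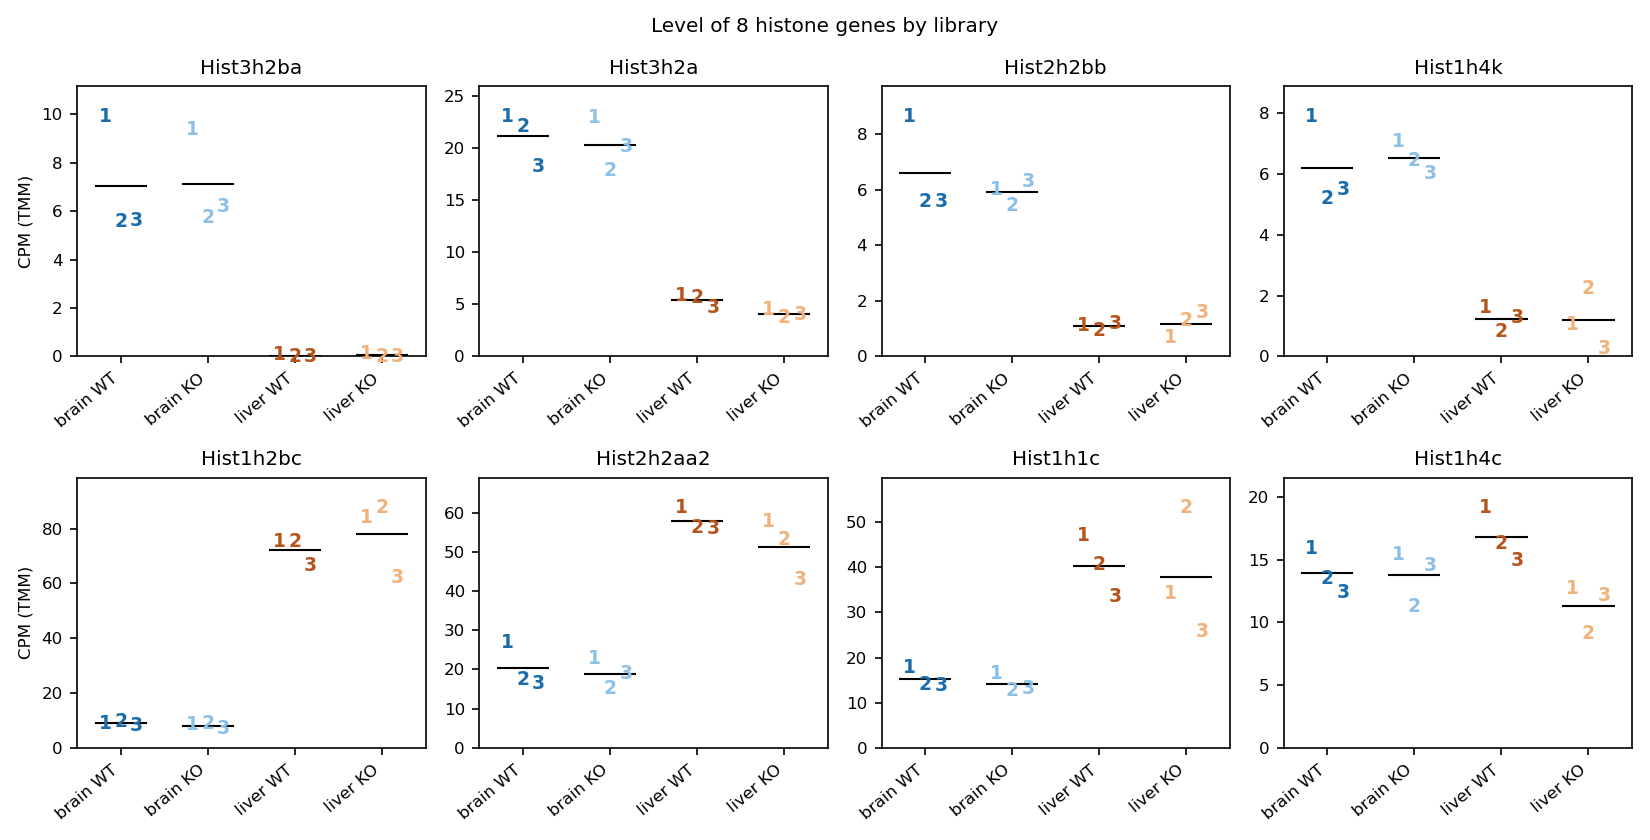
CPM (TMM scale, y axis of each panel) of 8 histone genes in the 12 libraries; each digit is a library at its replicate number, grouped by tissue and genotype. Hist3h2ba reads 5.59 to 9.93 in brain and at most 0.105 in liver, and Hist1h2bc 6.88 to 9.58 in brain and 62.0 to 87.6 in liver.

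Hist1h2bc had the largest log2 difference towards liver of the 4 histone genes called higher there in both genotypes on the TMM scale. It had 8.99, 9.58 and 8.25 CPM in wild-type and 8.34, 8.77 and 6.88 CPM in knockout brain. Its liver values were 75.3, 75.2 and 66.4 CPM in wild-type and 84.0, 87.6 and 62.0 CPM in knockout libraries. The log2 difference, brain over liver, was -3.01 (SE 0.12, adjusted p = 2.80e-07, edgeR) in wild-type and -3.29 (SE 0.17, adjusted p = 1.73e-06) in knockout mice, and -2.17 and -2.41 with library totals. Its head-to-head partner Hist1h2ac, an H2A gene whose promoter window is printed above, had means of 0.805 CPM over the 6 brain libraries and 0.553 CPM over the 6 liver libraries, far below Hist1h2bc in both.
Hist2h2aa2 encodes a canonical H2A and has a twin copy, Hist2h2aa1. It had 26.99, 17.3 and 16.5 CPM in wild-type and 22.7, 15.1 and 18.9 CPM in knockout brain, and 61.3, 56.3 and 55.8 CPM in wild-type and 57.8, 53.1 and 42.9 CPM in knockout liver. The log2 difference was -1.51 (SE 0.20, adjusted p = 0.000206, edgeR) in wild-type and -1.45 (SE 0.18, adjusted p = 0.000187) in knockout mice, and -0.66 and -0.56 with library totals. Both copies together gave 15.5 to 26.99 CPM in brain and 42.9 to 62.4 CPM in liver and did not overlap between the tissues.

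Among H1 genes, Hist1h1c had 17.8, 14.0 and 13.9 CPM in wild-type and 16.5, 12.7 and 13.2 CPM in knockout brain, against 47.1, 40.6 and 33.5 CPM in wild-type and 34.3, 53.3 and 25.9 CPM in knockout liver. The tissues did not overlap. Its log2 difference was -1.40 (SE 0.17, adjusted p = 0.000127, edgeR) in wild-type and -1.43 (SE 0.27, adjusted p = 0.00165) in knockout mice, and with library totals -0.56 and -0.53, the latter no longer past the threshold (adjusted p = 0.0765).
Hist1h1a, which encodes H1.1, went the other way. It had 2.09 to 4.16 CPM in brain and 0.393 to 1.52 CPM in liver, with a log2 difference of 1.22 (SE 0.34, adjusted p = 0.0112) in wild-type and 1.73 (SE 0.42, adjusted p = 0.00627) in knockout mice by edgeR. Knockout liver replicate 3 held 7 counts of it, so the direction of the knockout call is not read. Hist1h1b, which encodes H1.5, had 0.902 to 1.81 CPM in brain and 0.225 to 1.10 CPM in liver. The liver counts were 4, 6 and 21 in wild-type and 14, 15 and 8 in knockout libraries. It passed the filter on low counts only with the help of brain, so nothing is read from its direction. Its log2 difference was 1.37 (SE 0.60, adjusted p = 0.0682) in wild-type and 0.89 (SE 0.33, adjusted p = 0.0406) in knockout mice by edgeR. Both results changed sides of the threshold with the setting. In knockout mice the call was lost without any 1 of the brain libraries (0.84 to 0.94, adjusted p up to 0.0999), without liver knockout replicate 1 (0.93, adjusted p = 0.0869) or 3 (0.65, adjusted p = 0.137), and with the replicate block (0.91, adjusted p = 0.0728). DESeq2 (adjusted p = 0.0706), a filter of 1 count (0.0827) and a fit of all 12 libraries (0.130) also lost it. In wild-type mice the difference passed with the replicate block (1.51, adjusted p = 0.0460), a fit of all 12 libraries (0.0320), library totals (2.19, adjusted p = 0.0109) and without liver wild-type replicate 3 (2.38, adjusted p = 0.00604).
Hist1h1e, at 16.5 to 25.6 CPM in brain and 18.1 to 41.0 CPM in liver, was not called in either genotype (adjusted p = 0.0567 and 0.0911) by edgeR, whereas DESeq2 (adjusted p = 0.0311), its size factors in edgeR (0.0459) and a fit of all 12 libraries (0.0437) called it in wild-type mice. With the replicate block edgeR called it in both genotypes (adjusted p = 0.00329 and 0.0454). It also passed in edgeR without wild-type brain replicate 1 (-0.88), wild-type liver replicate 3 (-0.80) or knockout liver replicate 3 (-0.66). Its log2 difference of -0.62 in wild-type and -0.45 in knockout mice became 0.22 and 0.44 with library totals. Hist1h1d, which encodes H1.3, had 4.25 to 9.60 CPM in brain and 3.64 to 9.25 CPM in liver (log2 difference 0.20, SE 0.44, and 0.13, SE 0.37), and was called in knockout mice with library totals (1.03, adjusted p = 0.0287).

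Hist1h4h, an H4 gene, had 12.7 to 18.9 CPM in brain and 18.6 to 31.4 CPM in liver. It was called higher in liver on the TMM scale, with a log2 difference of -0.73 (SE 0.20, adjusted p = 0.0108, edgeR) in wild-type and -0.51 (SE 0.15, adjusted p = 0.0137) in knockout mice, but its difference was 0.11 and 0.37 with library totals. Hist2h2ac, an H2A gene next to the Hist2h2aa copies, had 1.88 to 3.56 CPM in brain and 3.09 to 6.51 CPM in liver. It was called in wild-type mice (-0.96, SE 0.34, adjusted p = 0.0310) but not in knockout mice (-0.50, SE 0.24, adjusted p = 0.0955), where library totals turned it to 0.38. The wild-type call was lost with library totals (-0.12, adjusted p = 0.752) and without brain wild-type replicate 2 (-0.90) or 3 (-0.85) or liver wild-type replicate 1 (-0.70), the latter 3 with adjusted p-values of 0.0580, 0.0764 and 0.109.
Of the leading H3 genes, Hist1h3e had 4.04 to 5.14 CPM in brain and 5.24 to 8.45 CPM in liver, with no overlap (log2 difference -0.50, SE 0.22, in wild-type and -0.40, SE 0.18, in knockout mice). With library totals the sign turned, to 0.34 and 0.47. The tissues overlapped for Hist2h3b, at 3.99 to 6.20 and 3.04 to 6.29 CPM, and for Hist1h3f, at 2.67 to 4.11 and 2.31 to 3.93 CPM. None of these 3 was called in either genotype by edgeR on the TMM scale. Wild-type Hist1h3e did pass without liver wild-type replicate 3 (-0.65, adjusted p = 0.0411) and in a fit of all 12 libraries (-0.50, adjusted p = 0.0350), and with library totals Hist2h3b (0.75 and 0.84) and Hist1h3f (1.15 and 1.25) were called higher in brain in both. The most abundant H4 gene by CPM, Hist1h4d, had 24.4 to 32.3 CPM in brain and 28.9 to 36.7 CPM in liver and was not called either. With library totals it was called higher in brain (0.71 and 0.78), as was Hist1h4c (0.58 and 1.15), which was at -0.27 and 0.28 and not called on the TMM scale.

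**Figure D4:**
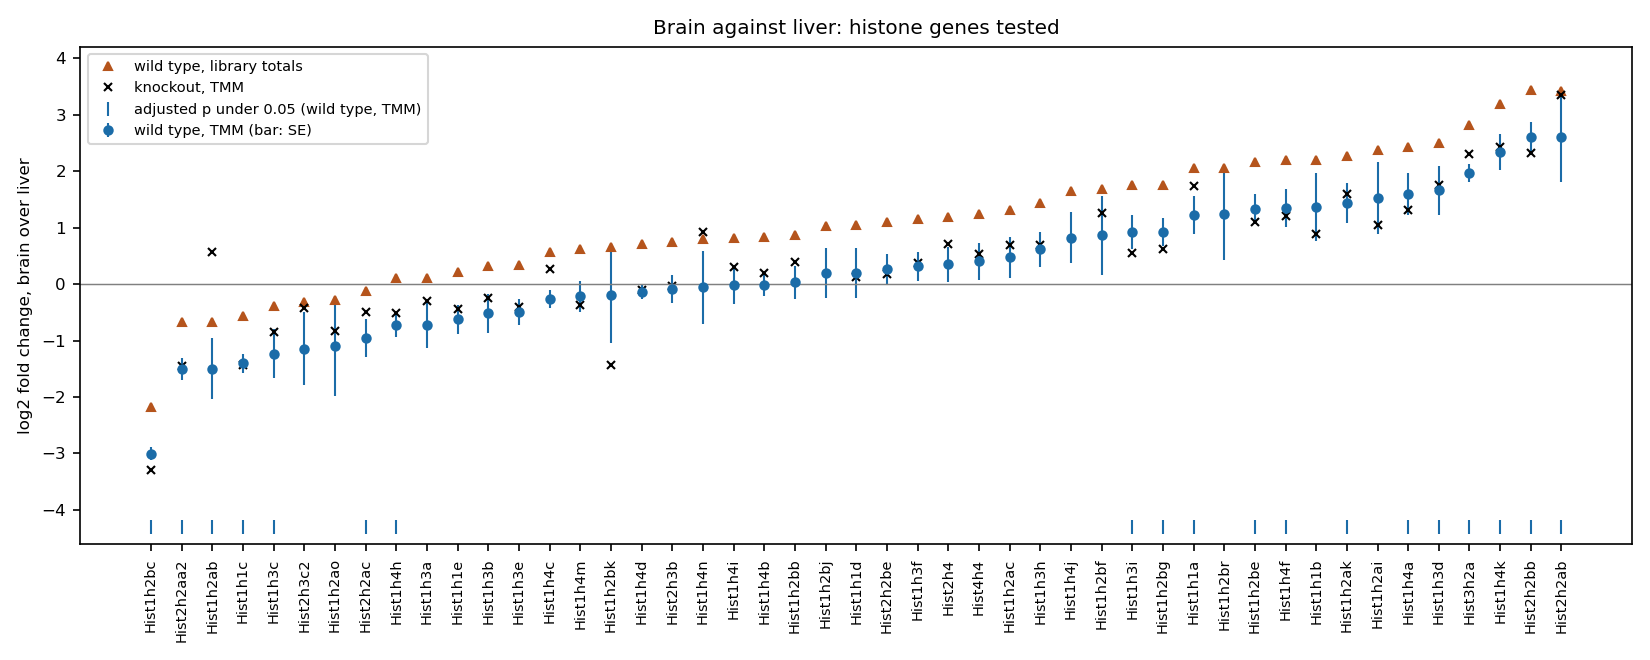
Log2 difference, brain over liver, of 47 tested histone genes. Shown are wild-type on the TMM scale with its SE, wild-type with library totals, and knockout on the TMM scale. Ticks mark adjusted p under 0.05, and Hist3h2ba is left out because liver is at or under 3 counts. Hist1h2bc is at -3.01 and Hist2h2bb at 2.60 in wild-type mice, and library totals move most points to higher values.

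Companion lists give the setting of these genes on the same scale; they are listed in the processing notes. In 2 of the other lists 1 called gene likewise had fewer than 10 counts in every library of the lower tissue (1 of 9 called higher in brain among the processing genes and 1 of 2 called higher in liver among the chaperones). The counts of the lists stand against the all-gene shares of 43.9% higher in brain and 34.7% higher in liver on the TMM scale, and 61.7% and 21.2% with library totals. Of 11 replacement histone variants, which are made outside S phase, 3 were called higher in brain and 6 higher in liver in wild-type mice (4 and 2 with library totals). H1fx, a linker variant, had 8.54 to 13.8 CPM in wild-type brain and 3 to 5 counts, near the floor, in the wild-type liver libraries. It passed the filter on low counts through brain alone, so its direction was fixed and no fold is given. H2afy2, a macroH2A gene, had a log2 difference of 3.48. H2afv, an H2A.Z gene, was at -1.17.
Of 22 genes for histone transcription and 3′ processing, 9 were called higher in brain and 5 higher in liver (18 and 2 with library totals). Lsm11, a U7 particle protein, was at 2.63 and Cstf2, of the cleavage complex, at 1.88, while Cdk2, the kinase that acts on Npat, was at -3.50. Other genes of that particle and complex did not share this direction. Lsm10 (-2.09) and Cpsf3 (-0.71) were called higher in liver, and Cpsf2 (0.17) and Sympk (-0.07) were not called. These lie outside the naming rule and were listed after their values were seen. Slbp itself had 9.43 to 12.7 CPM in brain and 11.2 to 13.5 CPM in liver and was not called in either genotype (log2 differences -0.14 and -0.22, adjusted p = 0.344 and 0.158, edgeR).
Of 36 replication and cell-cycle genes, 32 were tested; 2 were called higher in brain and 15 higher in liver (11 and 9 with library totals). The list summed to 88.1 to 109 CPM in brain and 175 to 213 CPM in liver. Of these 15 genes, 7 had fewer than 10 counts in at least 1 wild-type brain library and passed the filter only with the help of liver, so nothing is read from their direction. Among them was Tk1, an enzyme of nucleotide supply, with 2, 2 and 9 counts in wild-type brain and 14.6 to 19.6 CPM in wild-type liver. Mki67, a marker of cycling cells, had 1.19 to 5.38 CPM in brain and 7.60 to 15.4 CPM in liver (-2.25 in wild-type, -1.84 in knockout mice), and Top2a was at -1.80 in wild-type mice and at -1.19 in knockout mice, where it was not called (SE 0.62, adjusted p = 0.115, edgeR). Of 16 tested histone chaperones, 5 were called higher in brain and 2 higher in liver (14 and 2 with library totals), with Nap1l1 at 1.41, Hira at 0.93 and Rbbp4 at -1.10. Markers of progenitor cells of brain summed to 108 to 169 CPM in brain and 17.6 to 20.4 CPM in liver. The part of these lists in the histone differences was not tested.

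In the brain, loss of Vaultrc5 left no histone gene past the threshold. Of the 49 tested, 0 were called by edgeR's quasi-likelihood test, as were 0% of all 18075 genes; 0 had an unadjusted p under 0.05, against 0.675% of all genes. DESeq2 also called 0, as it did 0% of all genes, and gave 0 an unadjusted p under 0.05, against 0.432% of all genes. The median log2 change, knockout over wild-type, was -0.05 over the histone genes and -0.01 over all genes, with 18 genes positive and 31 negative. The sign of that median changed with the libraries used. Without wild-type replicate 1 it was 0.08 with 35 positive and 16 negative, without knockout replicate 2 it was 0.016 with 28 positive and 23 negative, and without replicate 1 of both genotypes it was 0.04 with 31 positive and 20 negative. It was -0.10 without wild-type replicate 2 or knockout replicate 1, -0.13 without wild-type replicate 3 and -0.07 without knockout replicate 3. Replicate 1 had the highest value in both genotypes for 21 of 48 histone genes with a mean of 10 counts or more (43.8%), against 25.1% of all such genes. Its share of counts in Rn7sk, another RNA without a poly(A) tail, was 1.53% in wild-type and 1.31% in knockout brain, against 1.08 to 1.22% in the other 4 brain libraries. The part of this in the histone values was not tested.
The smallest unadjusted p-values belonged to Hist1h3b, Hist1h4f and Hist2h3c2, all with an adjusted p of 1.00 (edgeR). Hist1h3b had 1.16, 0.791 and 1.42 CPM in wild-type and 1.04, 2.82 and 2.16 CPM in knockout brain, a log2 change of 0.85 (SE 0.43). Hist1h4f had 4.71, 3.43 and 4.05 CPM in wild-type and 3.26, 3.06 and 3.21 CPM in knockout brain, a change of -0.36 (SE 0.18), with no overlap between the groups. Hist2h3c2 had 0.188, 0.488 and 0.853 CPM in wild-type and 0.781, 1.30 and 1.11 CPM in knockout brain (1.05, SE 0.54), where 3 counts correspond to 0.123 to 0.148 CPM. Leaving out libraries moved its change from 0.65 to 1.65. With the replicate block it was 1.15 (unadjusted p = 0.0284, adjusted p = 0.996, edgeR). By class the median change lay between -0.11 for H1 and -0.02 for H4.

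In the liver likewise, 0 of 43 tested histone genes were called by edgeR, as were 0% of all 15329 genes, and DESeq2 called 0 histone genes but 10 others, or 0.0652% of all genes. An unadjusted p under 0.05 was reached by 2 histone genes with edgeR, against 3.5% of all genes, and by 2 with DESeq2, against 2.77%. A share of 2 in 43 is near both. The median log2 change was -0.09, against 0.01 over all genes, with 18 positive and 25 negative. It was 0.05 without wild-type replicate 1, 0.009 without knockout replicate 1 (22 positive, 22 negative) and 0.06 without replicate 1 of both genotypes. It was -0.19 without wild-type replicate 2, -0.20 without wild-type replicate 3 or knockout replicate 2, and -0.06 without knockout replicate 3. Replicate 1 had the highest value in both liver genotypes for 11 of 43 histone genes with a mean of 10 counts or more (25.6%). The share over all such genes was 15.3%. In Rn7sk, replicate 1 had 0.644% of counts in wild-type and 0.584% in knockout liver, against 0.500 to 0.667% in the other liver libraries. Knockout replicate 2 had 270 CPM of summed immune markers, against 116 to 161 CPM in the other 5 liver libraries.
Hist1h4c, an H4 gene (chr13:23697635-23698454, minus strand), had 19.2, 16.3 and 15.0 CPM in wild-type and 12.7, 9.09 and 12.2 CPM in knockout liver. The groups did not overlap, and the log2 change was -0.56 (SE 0.16, unadjusted p = 0.00848, adjusted p = 0.992, edgeR). In brain the same gene had 15.9, 13.5 and 12.4 CPM in wild-type and 15.4, 11.3 and 14.6 CPM in knockout libraries. The other 12 H4 genes together had 107, 85.1 and 87.4 CPM in wild-type and 93.9, 84.6 and 80.3 CPM in knockout liver.
Hist3h2a, at 5.85, 5.66 and 4.66 CPM in wild-type and 4.52, 3.72 and 3.98 CPM in knockout liver, also showed no overlap (-0.40, SE 0.17, unadjusted p = 0.0517). Hist2h3c1, an H3 gene without unique 50-nt stretches, had 0.120, 1.26 and 0.243 CPM in wild-type and 1.45, 5.71 and 1.25 CPM in knockout liver (2.34, SE 0.96, unadjusted p = 0.0489). The groups overlapped, although the knockout library was the higher one within each of the 3 numbers. Wild-type replicate 1 held 2.14 counts, under the floor of 3. With the replicate block the change was 2.48 (SE 0.36, unadjusted p = 0.000182, adjusted p = 0.252). Leaving out libraries moved it from 1.29 to 3.84. The highest value was in knockout replicate 2, the library with the most immune markers. Its same-strand neighbour Gm20634 was also highest in that library, at 20.01 CPM against 7.65 to 11.2 CPM in the other liver libraries. Hist2h3c1, Hist2h3c2 and Gm20634 together had 8.67, 13.6 and 11.0 CPM in wild-type and 14.4, 27.2 and 9.83 CPM in knockout liver. In that sum the knockout library was the lower one within number 3. The part of the immune markers or of Gm20634 in the Hist2h3c1 value was not tested. The H2A sum was lower in each knockout than in each wild-type liver library, with a log2 ratio of means of -0.22.

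**Figure D5:**
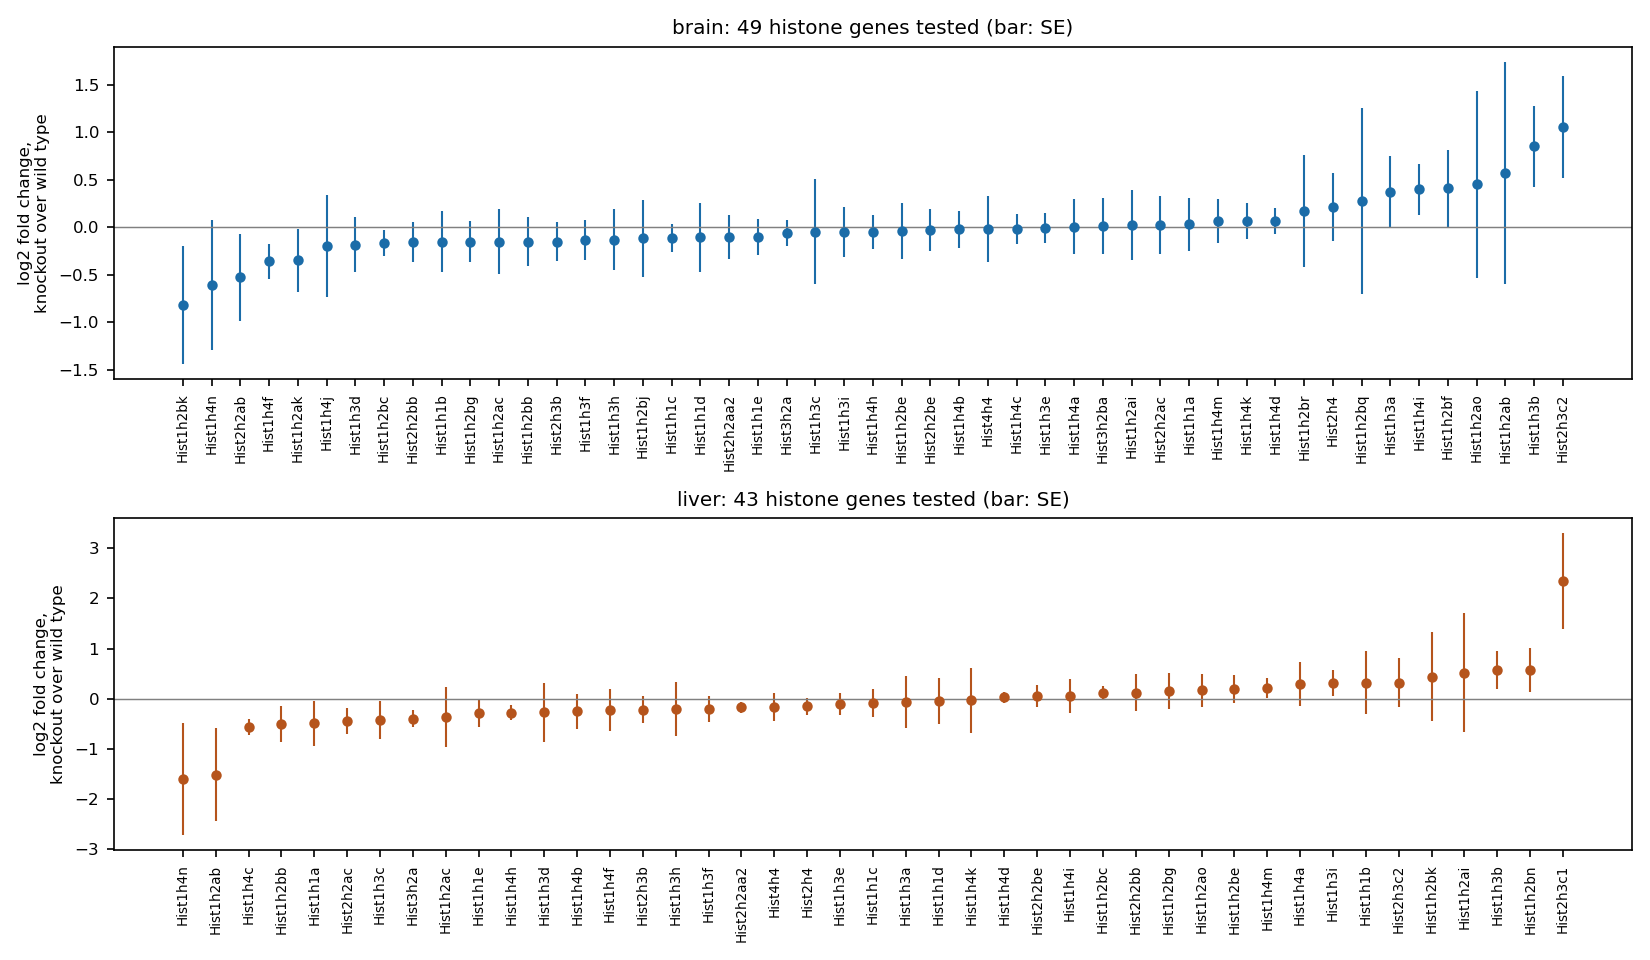
Log2 change, knockout over wild-type, with its SE for the 49 histone genes tested in brain and the 43 tested in liver. The changes run from -0.82 to 1.05 in brain and from -1.60 to 2.34 in liver, and none has an adjusted p under 0.05.

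The interaction, which asks whether the knockout effect differed between the tissues (liver minus brain), was called for 0 of 54 tested histone genes and for 0% of all 20141 genes by edgeR; DESeq2 called 0 histone genes and 0.00496% of all genes. An unadjusted p under 0.05 was reached by 1 histone gene with either tool, against 2.43% of all genes with edgeR and 2.47% with DESeq2. That gene was Hist1h4c in the edgeR fit, at -0.56 (SE 0.24, unadjusted p = 0.0426, adjusted p = 1.00). Hist3h2a followed at -0.35 (unadjusted p = 0.118). Hist2h2aa1, with the next smallest p of 0.121, was at 0 in 8 of 12 libraries and gets no fold. The median over the histone genes was -0.13, against 0 over all genes to 2 decimals, and leaving out 1 library gave -0.29 (without liver knockout replicate 2) to 0.06 (without liver wild-type replicate 1). It was -0.28 without brain wild-type replicate 1 and -0.22 without liver wild-type replicate 2, and lay between -0.16 and -0.04 in the other 8 fits. No gene of the 4 companion lists was called in the knockout comparisons or in the interaction, by edgeR.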

How the data were processed

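RNA was extracted from brain and liver and sequenced single-end with a stranded total RNA kit after ribosomal RNA depletion, per the labels' protocols. The authors deposited a table of expected counts per gene for 12 libraries (3 in each of 4 groups). Per the submitters' processing notes, cutadapt, STAR and the mm10 build were used. The counting tool, its annotation and its use of strand are not given in the sources used here. The table held 0 columns of other samples.

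Expected counts were rounded to whole numbers and tested with edgeR 4.0.16 (R 4.3.3, limma 3.58.1): TMM scaling, filterByExpr (minimum count 10, minimum total 15), robust quasi-likelihood F-test, and Benjamini-Hochberg adjustment over all genes tested, with a threshold of 0.05. SEs were computed as the absolute log2 difference divided by the square root of F. Each comparison used its own groups, and the interaction all 12 libraries. DESeq2 1.42.0 was an alternative. The fits were also run on simulated counts with the same dispersion for every gene, below the common dispersions of the main knockout and tissue fits. No result here rests on that run. CPM were computed on unrounded counts, and the floor was 3 counts.

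The histone genes and lists were chosen with earlier results of these data known. Named were the 3 most abundant genes of each class, all H1 and the testis genes, the called genes (or the 3 with the smallest p) of each knockout comparison and the interaction, up to 5 per direction in the wild-type tissue comparison, and up to 3 genes per companion list. Of the companion genes so named, 1 is not reported here. The companion lists were replacement variants (11 genes), histone messenger RNA machinery (22), replication and cell cycle (36) and histone chaperones (17); marker lists covered neural, hepatocyte, progenitor, erythroid and immune cells. Erythroid markers summed to 5.64 to 12.4 CPM in brain and 108 to 163 CPM in liver, and immune markers to 39.9 to 63.9 CPM in brain.

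The 12 pairs of replicates differed beyond sampling noise (chi-square over degrees of freedom 27.2 to 228), so none was counted as a duplicate. Libraries with the same replicate number deviated together between the liver genotypes (correlations 0.23, 0.24 and 0.30 over 15329 genes), so the liver pairs were treated as paired in an alternative fit with a replicate block, which called no further histone gene. Alternatives changed the scaling, the low-count filter, the rounding, the robust option, the libraries left out and the tool. Sequences came from GENCODE M21 transcripts and the RefSeq promoter table.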

Additional observations from a re-analysis of the deposited data

How the results depend on the processing

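The number of histone genes called in both knockout comparisons and in the interaction was 0 under every alternative run, including the replicate block and every fit that left a library out. Vaultrc5 itself, at 0 counts in knockout liver, did not pass in the main liver fit (adjusted p = 0.333, edgeR) and was not tested in brain. A count of 0 therefore does not exclude a change in genes with few counts. The tissue counts moved by more than 1.5 times only with library totals or, in 1 case, with a library left out. With library totals, 30 genes were higher in brain and 3 higher in liver in wild-type mice (61.7% and 21.2% of all genes), and 30 and 3 in knockout mice (62.1% and 20.6%). Other filters, tools and fits gave 11 to 15 higher in brain and 6 to 9 higher in liver in wild-type mice, and 11 to 13 and 5 to 9 in knockout mice. Leaving out a library gave 12 to 14 higher in brain and 4 to 8 higher in liver in wild-type mice, the 4 being without liver wild-type replicate 1, and 11 to 15 and 5 to 7 in knockout mice. Library totals reversed Hist1h4h (0.11 in wild-type, 0.37 in knockout mice), Hist1h1e (0.22 and 0.44), Hist1h3e (0.34 and 0.47), Hist2h3b (0.75 and 0.84), Hist1h4d (0.71 and 0.78), wild-type Hist1h4c (0.58) and knockout Hist2h2ac (0.38). Hist2h3b, near 0 on the TMM scale, also changed sign with the knockout replicate block (0.015). They also reversed the class ratios of wild-type H1 (0.071), H2A (0.29), H3 (0.79), H4 (0.78) and all members (0.35), and of knockout H1 (0.17), H2A (0.47), H3 (0.75) and all members (0.45), while the H2B ratios moved to -0.27 and -0.43 and knockout H4 to 1.00. Per kilobase of model the ratios moved or turned for H2A (-0.99 and -0.82), H2B (-0.55 and -0.76) and H3 (0.0082 and 0.0068) with TMM. Per kilobase with library totals they were, in wild-type and knockout mice, 0.10 and 0.21 for H1, -0.14 and 0.044 for H2A, 0.30 and 0.11 for H2B, 0.85 and 0.87 for H3, 0.81 and 1.01 for H4, and 0.44 and 0.55 for all members. The construction of TMM, which centres most genes, sets this shift. Hist1h1d ranged from -0.22 to 0.74 in wild-type and from -0.18 to 0.52 in knockout mice when libraries were left out, and Hist2h3b from -0.30 to 0.040 and from -0.27 to 0.20. Library totals and model length in the class ratios and leaving out replicate 1 of both genotypes were chosen after seeing the data.

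With the replicate block, 22 histone genes were called between wild-type tissues (15 higher in brain, 7 in liver) and 21 between knockout tissues (12 and 9), and the block changed no call in the knockout comparisons. Correlations of same-numbered libraries were 0.02 to 0.06 between tissues and 0.59, 0.59 and -0.01 between brain genotypes, so by the rule that every pair exceed 0.1 they were not treated as pairs, although 2 of the brain pairs correlated and the block lowered the common dispersion in brain from 0.0587 to 0.0184. Each library correlated best with its own number in 6 of 6 libraries for the tissue pairs and in 4 for brain. Depth limits the lowest genes, since 3 counts equal 0.123 to 0.169 CPM.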
